A study of Mus musculus and Rattus norvegicus with 85 samples.

Results

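7 genes of very different function were followed through the lungs of mice and rats that inhaled chloroprene, the chlorinated diene from which neoprene rubber is made. They are the alpha-fetoprotein gene Afp, the peroxisomal oxidase Acox2, the cytokine Il1f9 (interleukin-36 gamma, also written Il36g), the nucleotidase Entpd5, the vesicle proteins Doc2b and Myrip, and the receptor Tgfbr3. They were chosen by symbol, as genes outside the classic detoxification enzymes that were reported to be strongly higher in mice at the highest concentration. The comparisons of 90 ppm with the lowest mouse concentration of the same time therefore chose them, and values from those comparisons describe the genes and test nothing. All 7 genes are on the mouse array, with 18 probe sets of the 34945 that carry a single gene symbol, and 15 of these probe sets passed a filter on low signal. On the rat array 6 of the genes have 11 probe sets of 20826, of which 9 probe sets in 4 genes passed. Il1f9 had no matching rat probe set in the annotation used here, and rat Afp and Acox2 were under the filter on all 40 arrays.

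Female B6C3F1/Crl mice were exposed to chloroprene for 5 days, in groups at 0, 0.3, 2, 13 and 90 ppm, or for 15 exposure days, in groups at 0.3, 2, 13 and 90 ppm. Female F344/NCrl rats, whose strain is spelled F334/NCrl in another label field, were exposed to 5, 30, 90 or 200 ppm for 5 or 15 exposure days. Animals were 10 weeks old at the start and inhaled the vapour in air with the whole body exposed, 6 h per day on 5 days per week. The right lung lobes of each animal gave 1 array, with 5 animals in each of the 9 mouse and 8 rat groups and 85 arrays in all, and each animal carries a number of its own, so the p-values below measure the spread between animals. Unexposed mice were analysed here at 5 days, and unexposed animals of the 15 day series or of the rat series were not. Whole lung holds many cell types, and in such samples fewer cells of a type and less RNA per cell cannot be told apart. Signals are log2 values as the authors deposited them, a difference of 1 is a doubling, and each gene is described by its probe set of highest mean signal. Signals of different probe sets are not set against each other.

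Afp encodes the main serum protein of the fetus, a relative of albumin that the yolk sac and fetal liver make and that is nearly silent after birth. Acox2 encodes an oxidase of the peroxisomal breakdown of bile acid precursors. Entpd5 encodes an enzyme of the endoplasmic reticulum that hydrolyses UDP and so serves the folding of glycoproteins. Interleukin-36 gamma is an epithelial cytokine of the interleukin-1 family that signals through the receptor Il1rl2. Doc2b is a calcium sensor of vesicle fusion, Myrip links Rab27 on secretory granules to myosin and actin, and betaglycan, the product of Tgfbr3, presents transforming growth factor beta and inhibins to their receptors.

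In the mouse the genes fell into separate patterns over concentration. Afp, Acox2, Il1f9 and Entpd5 were graded, with intermediate signals at 2 and 13 ppm. Doc2b and Myrip were high in the 90 ppm mice alone. Tgfbr3 went against the description under which it was chosen: it differed by 0.20 log2 units between 90 and 0 ppm after 5 days, ranked 2165 of 13796 genes by that difference, and these groups overlapped. Between 90 and 0.3 ppm after 15 days it differed by 0.34 and ranked 677, and those groups did not overlap. In the rat, Entpd5 and Tgfbr3 were higher at 200 than at 5 ppm at both times, and Doc2b and Myrip did not pass the test.

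The stretch just upstream of each graded gene is shown with matches to the antioxidant response element cores TGACNNNGC and TGAGNNNGC. NRF2, the regulator of the response to electrophiles, binds such elements. Control of these genes by NRF2 was not tested. Each sequence is the 250 bases before the annotated start in RefSeq (GRCm38.p6), written 5′ to 3′ on the strand of the gene, and capitals mark a match to either core on either strand. The windows are chr14:8259020-8259269 on the minus strand for Acox2, chr2:24186226-24186475 on the plus strand for Il1f9, chr12:84409030-84409279 on the minus strand for Entpd5 and chr5:90490464-90490713 on the plus strand for Afp.
Acox2: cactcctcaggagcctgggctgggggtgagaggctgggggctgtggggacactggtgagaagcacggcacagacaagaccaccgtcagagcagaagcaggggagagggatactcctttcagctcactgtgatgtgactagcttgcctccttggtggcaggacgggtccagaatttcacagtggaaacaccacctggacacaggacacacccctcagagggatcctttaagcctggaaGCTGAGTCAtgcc
Il1f9: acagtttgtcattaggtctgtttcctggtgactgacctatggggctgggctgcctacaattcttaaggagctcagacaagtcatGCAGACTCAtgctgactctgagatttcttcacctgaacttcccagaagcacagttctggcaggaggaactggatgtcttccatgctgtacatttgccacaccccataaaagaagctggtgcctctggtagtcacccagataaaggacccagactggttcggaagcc
Entpd5: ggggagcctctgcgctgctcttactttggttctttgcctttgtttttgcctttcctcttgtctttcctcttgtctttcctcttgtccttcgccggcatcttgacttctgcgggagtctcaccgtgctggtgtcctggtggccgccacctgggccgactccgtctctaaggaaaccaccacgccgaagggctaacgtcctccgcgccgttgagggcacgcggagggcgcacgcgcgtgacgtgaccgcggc
Afp: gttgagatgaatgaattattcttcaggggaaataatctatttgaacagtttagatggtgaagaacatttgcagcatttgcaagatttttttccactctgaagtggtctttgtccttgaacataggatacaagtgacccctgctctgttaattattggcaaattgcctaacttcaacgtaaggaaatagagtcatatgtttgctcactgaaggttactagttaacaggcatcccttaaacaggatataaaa
The Acox2 window holds TGACTCAGC on the opposite strand, from -13 to -5 relative to the start, and these letters also contain the AP-1 motif TGACTCA. A second annotated start of Acox2 lies downstream, and the same site stands at -193 to -185 from it. The Il1f9 window holds TGAGTCTGC on the opposite strand, from -166 to -158. Of 32851 mouse windows of this length, 10.2% hold TGACNNNGC, 14.4% hold TGAGNNNGC and 4.46% hold TGACTCA, counting both strands. Neither core was among the letters of the Entpd5 and Afp windows. The Entpd5 window holds the dioxin response core GCGTG at 4 places, a motif found in 28.2% of windows, and the Afp window holds TATAAA from -7 to -2, found in 12.4%. In the Myrip window (chr9:120303823-120304072, plus strand), which lies within the annotated gene, 3 GC boxes (GGGCGG, in 32.7% of windows) and 2 copies of GCGTG were found and neither core. A match describes the letters and does not show that a factor binds there.

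The 7 genes lie on 6 mouse chromosomes. In the same annotation Afp spans chr5:90490714-90508907, next to its relative Alb at chr5:90460870-90476602, and Tgfbr3 spans chr5:107106567-107289629. Il1f9 is at chr2:24186476-24193567, Myrip at chr9:120303520-120476101, Doc2b at chr11:75768270-75796060, Entpd5 at chr12:84373875-84409029 and Acox2 at chr14:8225511-8259019.

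All 11 club cell and 11 alveolar type 2 markers on the mouse array passed the filter, and so did all 11 alveolar type 2 markers on the rat array. Correlations between arrays of a group were at least 0.976 in the mouse and 0.958 in the rat. The RNA integrity number ran between 7.1 and 9.7 where it was given, and 7 arrays have none. In the 5 day rats its median differed between groups: 8.3 at 5 ppm, 9.25 at 30 ppm, 9.2 at 90 ppm and 7.65 at 200 ppm. The titles of rats 239 (5 days, 30 ppm), 269 (5 days, 200 ppm) and 282 (15 days, 200 ppm) name no tissue, unlike all others. In 9 mice the title gives 15 days and another label 5 days; the title was followed. In the 5 day rats, 36.3% of 11010 genes passed between 200 and 5 ppm, 4.68% higher and 31.6% lower, with a median over all genes of -0.14.

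Acox2, the oxidase of bile acid precursors, was graded, with SDs of 0.07 to 0.30 within groups. After 5 days its signal (probe set 1420673_a_at) was 8.92, 8.88, 8.59, 8.96 and 8.60 at 0 ppm and 8.53, 9.10, 8.88, 8.67 and 8.96 at 0.3 ppm. It was 9.53, 9.52, 9.18, 9.62 and 9.44 at 2 ppm, 9.60, 10.04, 9.77, 9.49 and 9.85 at 13 ppm and 10.60, 10.26, 10.18, 10.46 and 10.35 at 90 ppm. Every mouse at 2, 13 or 90 ppm was above every mouse at 0 and 0.3 ppm, the 2 and 13 ppm ranges overlapped, and the 90 ppm mice stood above all others. The mean at 90 ppm was 10.37 ± 0.17, against 8.79 ± 0.18 at 0 ppm (SD, n = 5 each), a difference of 1.58 or 2.99-fold that ranked 19 of 13796. After 15 days the values were 9.004, 9.03, 8.83, 9.37 and 8.57 at 0.3 ppm, 9.53, 9.47, 9.43, 9.59 and 9.41 at 2 ppm, 9.90, 9.90, 9.96, 9.75 and 9.78 at 13 ppm and 10.58, 10.29, 10.40, 10.52 and 10.32 at 90 ppm. No 2 neighbouring concentrations overlapped at this time, and 90 ppm stood 1.46 above 0.3 ppm.

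Afp, the fetal serum protein, varied more between mice, with SDs of 0.15 to 0.64. At 5 days probe set 1416645_a_at measured 6.83, 6.91, 6.09, 7.87 and 7.15 at 0 ppm and 7.41, 7.77, 6.96, 6.96 and 6.90 at 0.3 ppm. The values were 7.53, 8.01, 7.40, 8.58 and 7.43 at 2 ppm, 8.10, 8.25, 8.38, 7.40 and 8.26 at 13 ppm and 9.02, 8.67, 8.74, 8.53 and 8.98 at 90 ppm. Neighbouring concentrations overlapped up to 13 ppm, and the mice at 90 ppm were above all at 0, 0.3 and 13 ppm. A single mouse at 2 ppm, at 8.58, stood above the lowest mouse at 90 ppm, at 8.53. The 90 ppm mice averaged 8.79 ± 0.21, against 6.97 ± 0.64 at 0 ppm (SD, n = 5 each), a difference of 1.82 or 3.53-fold. At 15 days the signals were 7.04, 7.65, 7.74, 8.63 and 7.09 at 0.3 ppm, 8.17, 7.88, 7.93, 7.78 and 7.83 at 2 ppm, 8.57, 8.87, 8.58, 7.71 and 8.18 at 13 ppm and 9.39, 9.43, 8.84, 8.99 and 9.84 at 90 ppm. The lowest 90 ppm mouse lay just below the highest 13 ppm mouse, and above all at 0.3 ppm, and 90 ppm stood 1.66 above 0.3 ppm.

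Il1f9, the epithelial cytokine, was near the filter of 6.67 without exposure and passed it on 31 of 45 mouse arrays. The 5 day signals of probe set 1425958_at were 6.59, 6.57, 6.49, 6.42 and 6.26 at 0 ppm and 6.54, 6.77, 6.25, 6.45 and 6.64 at 0.3 ppm. They were 6.89, 6.57, 6.61, 6.998 and 6.79 at 2 ppm, 6.89, 7.27, 7.65, 7.01 and 7.55 at 13 ppm and 7.42, 7.60, 7.67, 7.62 and 8.15 at 90 ppm. All mice at 13 and 90 ppm were above all at 0 and 0.3 ppm, while 13 and 90 ppm overlapped. The mean was 7.69 ± 0.27 at 90 ppm, against 6.47 ± 0.13 at 0 ppm (SD, n = 5 each), a measured difference of 1.23, or at least 1.02 against the filter, which all 0 ppm mice were under. The 15 day signals were 6.27, 6.65, 6.81, 6.75 and 6.23 at 0.3 ppm, 7.10, 6.84, 6.97, 7.03 and 7.23 at 2 ppm, 7.72, 7.36, 7.48, 7.19 and 7.15 at 13 ppm and 7.73, 7.89, 7.89, 7.87 and 8.07 at 90 ppm. Only 2 and 13 ppm overlapped among neighbours at this time, and 90 ppm was 1.35 above 0.3 ppm.

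Entpd5, the endoplasmic reticulum nucleotidase, was well above the filter on every array. The 5 day values of probe set 1417384_at were 10.04, 10.09, 9.87, 10.22 and 9.97 at 0 ppm and 9.99, 10.31, 10.10, 9.97 and 9.84 at 0.3 ppm. They were 10.72, 10.60, 10.31, 10.53 and 10.35 at 2 ppm, 10.72, 10.80, 10.69, 10.37 and 10.56 at 13 ppm and 11.31, 11.15, 11.01, 11.24 and 11.08 at 90 ppm. Mice at 90 ppm stood above all others of this time, the 2 ppm mice lay just above all at 0 and 0.3 ppm, and 2 and 13 ppm overlapped. The mean was 11.16 ± 0.12 at 90 ppm, against 10.04 ± 0.13 at 0 ppm (SD, n = 5 each), a difference of 1.12. At 15 days Entpd5 measured 9.97, 10.14, 10.24, 10.40 and 9.80 at 0.3 ppm, 10.71, 10.42, 10.53, 10.26 and 10.33 at 2 ppm, 11.09, 10.82, 10.87, 10.59 and 10.50 at 13 ppm and 11.20, 11.11, 11.25, 11.41 and 11.04 at 90 ppm. All neighbours overlapped there, and the 5 mice at 90 ppm lay above all at 0.3 ppm, by 1.10 on average.

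Doc2b, the calcium sensor of vesicle fusion, passed the filter on 9 of 45 mouse arrays, all of them at 90 ppm. After 5 days its signal (probe set 1420667_at) was 5.13, 5.13, 5.42, 5.06 and 5.10 at 0 ppm and 5.23, 5.93, 5.28, 5.20 and 5.90 at 0.3 ppm. The 2 ppm mice had 5.74, 5.18, 5.74, 5.57 and 5.43, the 13 ppm mice 5.34, 5.46, 4.96, 5.33 and 5.89 and the 90 ppm mice 7.22, 7.31, 7.05, 6.82 and 6.26. The groups up to 13 ppm overlapped, and the 90 ppm mice averaged 6.93 ± 0.42, against 5.17 ± 0.15 at 0 ppm (SD, n = 5 each), a measured difference of 1.76. Since every 0 ppm mouse was under the filter, the 90 ppm mean counts only as at least 0.26 higher, taken against the filter in place of those signals. The 15 day values were 5.35, 5.29, 5.37, 6.06 and 5.41 at 0.3 ppm, 5.35, 5.46, 5.03, 4.99 and 5.41 at 2 ppm, 5.09, 5.32, 5.41, 5.19 and 5.18 at 13 ppm and 8.05, 6.99, 7.89, 7.52 and 7.24 at 90 ppm. The measured difference between 90 and 0.3 ppm was 2.04 at this time, or at least 0.87 against the filter, and mouse 128, at 0.3 ppm, had the highest signal outside the 90 ppm groups.

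Myrip, the Rab27 effector, was above the filter on every mouse array and had the same shape. After 5 days probe set 1460601_at gave 8.80, 8.26, 8.44, 8.99 and 8.68 at 0 ppm and 8.84, 9.42, 8.85, 8.99 and 9.9998 at 0.3 ppm. The 2 ppm mice had 8.9999, 9.09, 9.36, 9.22 and 9.47, the 13 ppm mice 8.72, 8.997, 8.88, 9.002 and 10.02 and the 90 ppm mice 11.01, 10.91, 10.83, 10.73 and 10.29. The 0 ppm mice lay below all 2 ppm mice and overlapped with the 0.3 and 13 ppm mice. At 90 ppm the mean was 10.75 ± 0.28, against 8.63 ± 0.29 at 0 ppm (SD, n = 5 each), a difference of 2.12 or 4.35-fold that ranked 10 of 13796. After 15 days it gave 8.70, 8.53, 8.55, 9.53 and 8.67 at 0.3 ppm, 8.66, 8.58, 8.59, 8.46 and 8.89 at 2 ppm, 8.55, 8.66, 8.45, 8.58 and 8.82 at 13 ppm and 10.76, 10.57, 11.07, 10.86 and 10.64 at 90 ppm. The 90 ppm mice again stood above all others, 1.98 above 0.3 ppm on average, and mouse 128 was again the highest at 0.3 ppm.

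Tgfbr3, the betaglycan gene, was read with probe set 1433795_at, and its lowest group mean at each time was that at 13 ppm. After 5 days the means were 12.10 ± 0.11 at 0 ppm, 12.14 ± 0.09 at 0.3 ppm, 12.00 ± 0.20 at 2 ppm, 11.86 ± 0.09 at 13 ppm and 12.29 ± 0.18 at 90 ppm (SD, n = 5 each). The 90 ppm mice measured 12.19, 12.53, 12.36, 12.32 and 12.05, against 12.26, 12.06, 12.09, 11.96 and 12.12 at 0 ppm, and these ranges overlapped. After 15 days the 90 ppm mice measured 12.13, 12.22, 12.44, 12.30 and 12.16, against 11.88, 12.06, 11.94, 11.82 and 11.83 at 0.3 ppm. These ranges did not overlap, the difference was 0.34, and the 13 ppm mice averaged 11.75 ± 0.09.

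**Figure D1:**
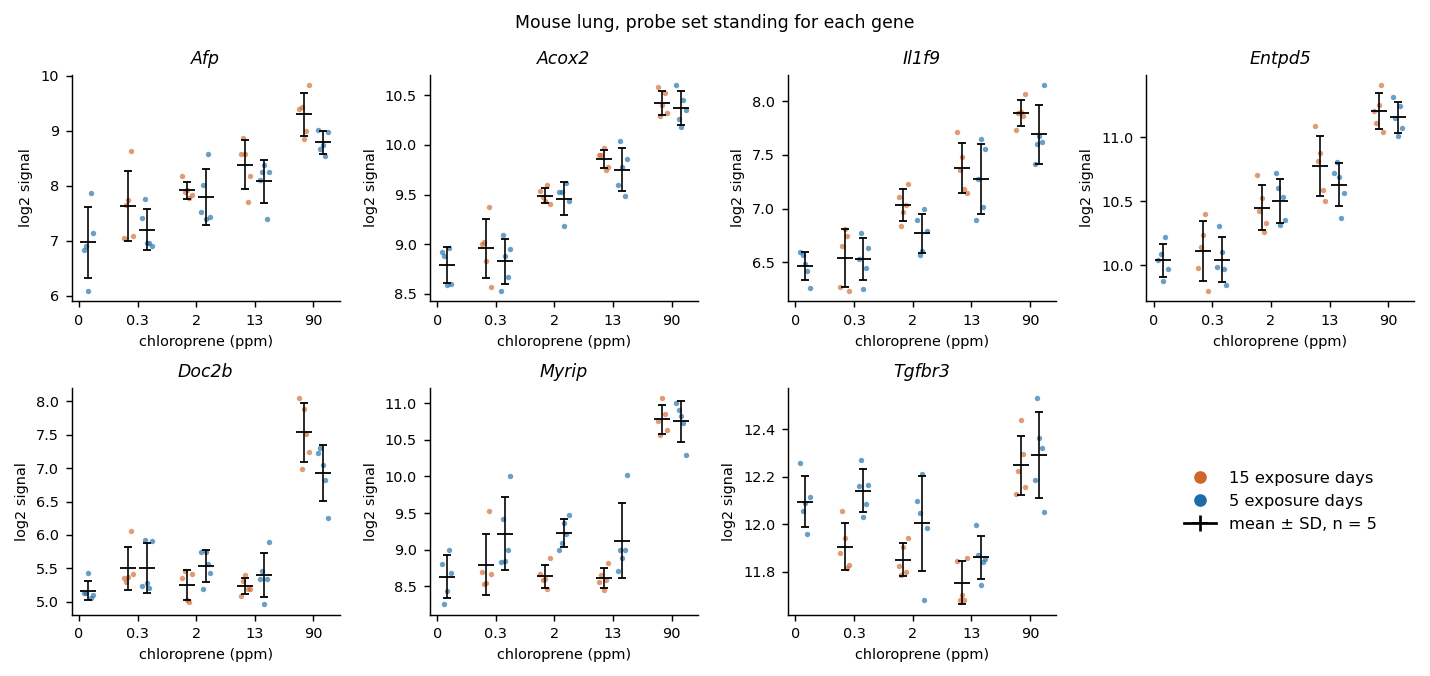
Log2 signal of each gene in every mouse lung (points) with the group mean and SD (bars), by chloroprene concentration in ppm and exposure days. The means of Afp, Acox2, Il1f9 and Entpd5 lie higher at 2, 13 and 90 ppm in turn, Doc2b and Myrip are high in the 90 ppm mice alone, and the Tgfbr3 means lie between 11.75 and 12.29.

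In the comparisons that chose the genes, 6 of the 7 had every 90 ppm mouse above every 0 ppm mouse at 5 days, where 7.99% of all genes tested did, and all 7 had every 90 ppm mouse above every 0.3 ppm mouse at 15 days, where 2.27% did. Nothing is read from these counts, since the genes were picked on them. The limma fit called 16.3% of all genes between 90 and 0 ppm at 5 days and 7.97% between 90 and 0.3 ppm at 15 days. Without the 9 mice of conflicting duration, 2 mice remained in each group of the 15 day comparison, and the differences between 90 and 0.3 ppm were 2.12 for Afp, 1.76 for Acox2, 1.55 for Il1f9 and 1.42 for Entpd5. They were 2.40 for Doc2b, 2.12 for Myrip and 0.36 for Tgfbr3 in those mice.

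The share of the 90 ppm difference already present at a lower concentration, both measured from 0.3 ppm, is given as a description, since the 90 ppm values chose the genes. After 5 days 13 ppm held 59.8% of it for Acox2, 64.2% for Il1f9, 55.3% for Afp and 52.6% for Entpd5. After 15 days the shares were 61.5% for Acox2, 61.9% for Il1f9, 45.2% for Afp and 60.7% for Entpd5. At 2 ppm these 4 genes held between 20.9% and 41.3% after 5 days, and between 17.1% and 36.5% after 15 days. Most 0.3 ppm mice were under the filter for Il1f9 at both times, so all its shares rest on signals at that limit. For Myrip the share at 13 ppm was -6.18% after 5 days and -9.32% after 15 days, and none is given for Doc2b, whose signals below 90 ppm were all under the filter. The Myrip mean at 90 ppm after 5 days stood 1.53 above the next lower group mean of any time, with no overlap of ranges. For Doc2b this step was 1.40 as measured, but at least 0.26 against the filter, which all mice of the lower group were under. The graded genes had a step without overlap between neighbours in this order only for Acox2, where the 5 day 90 ppm mean lay 0.51 above that of 13 ppm at 15 days.

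**Figure D2:**
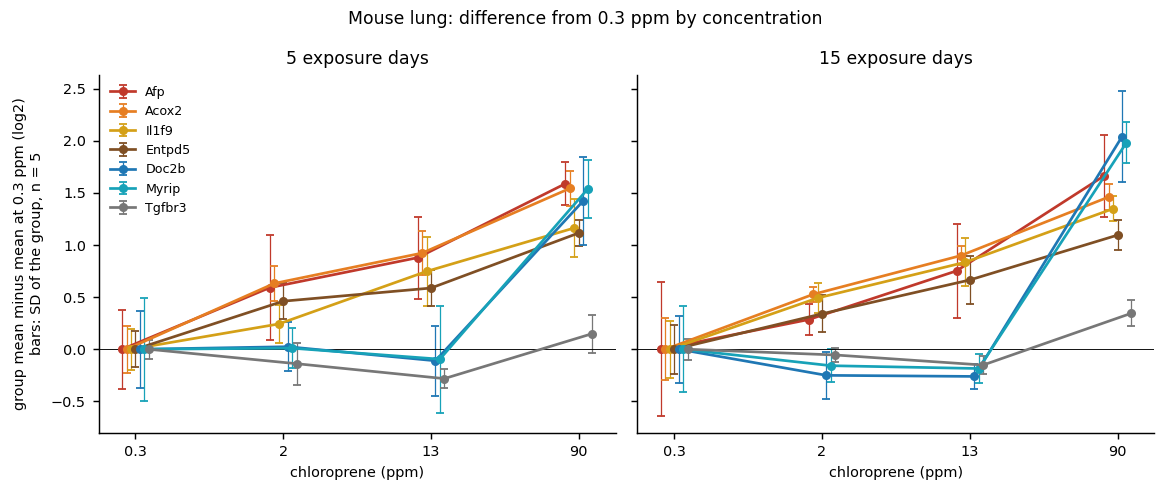
Group mean of each gene minus its own mean at 0.3 ppm, in log2 units, over chloroprene concentration in ppm (even steps) after 5 exposure days (left) and 15 (right), with bars for the SD of each group (n = 5). Acox2 stands at 0.92 and Doc2b at -0.11 at 13 ppm after 5 days, and Doc2b and Myrip reach 2.04 and 1.98 at 90 ppm after 15 days. Doc2b was under the filter in all mice below 90 ppm, so its 2.04 counts as at least 0.87.

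Concentrations below 90 ppm allowed tests on mice that the choice of genes did not use. Between 13 and 0.3 ppm after 5 days, 3 of the 7 genes rose and 0 fell by limma, where 0.348% of all genes tested passed and 0.341% passed as higher. Acox2 rose by 0.92 ± 0.11 (SE; limma's adjusted p = 7.6e-07, 1.90-fold), Il1f9 by 0.75 ± 0.14 (adjusted p = 0.0011) and Entpd5 by 0.59 ± 0.11 (adjusted p = 0.0018). In each of the 3, all 5 mice at 13 ppm were above all 5 at 0.3 ppm. Afp was at 0.88 ± 0.27 (limma's adjusted p = 0.25, 95% interval 0.33 to 1.42), with a spread between mice that did not allow a call. Myrip was at -0.09 ± 0.20 (limma's adjusted p = 1.0, 95% interval -0.50 to 0.31). Doc2b was at -0.11 ± 0.19 (limma's adjusted p = 1.0), but all mice of both groups were under the filter, so that nothing is read from its differences here or between other groups below 90 ppm. Tgfbr3 was at -0.28 ± 0.08 (limma's adjusted p = 0.17). By size of the difference, Acox2 ranked 11, Afp 14, Il1f9 26 and Entpd5 48 of 13796 genes, and Myrip and Tgfbr3 ranked 11629 and 13622.

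Between 2 and 0.3 ppm after 5 days limma called 0.0797% of all genes, all of them higher, and Acox2 alone among the 7, at 0.63 ± 0.11 (adjusted p = 0.0039). Entpd5 was at 0.46 ± 0.11 (limma's adjusted p = 0.13), Afp at 0.59 ± 0.27 and Il1f9 at 0.24 ± 0.14 (limma's adjusted p = 0.94 for both). Acox2 lost its call when only the arrays of these groups entered the fit (limma's adjusted p = 0.15). Entpd5 passed without mouse 118 of the 0.3 ppm group (limma's adjusted p = 0.049).

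No gene of the 7 passed limma between 13 and 2 ppm, where 0.0217% of all genes passed after 5 days and 0.109% after 15 days. At an unadjusted p under 0.05 there were 2 of the 7 (Acox2 and Il1f9) after 5 days and 3 (Acox2, Il1f9 and Entpd5) after 15 days. Il1f9 was at 0.50 ± 0.14 (95% interval 0.23 to 0.78) and Acox2 at 0.29 ± 0.11 after 5 days. After 15 days Acox2 was at 0.37 ± 0.11 and Entpd5 at 0.32 ± 0.11.

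Time at a fixed concentration moved none of the 7 past limma's threshold, at 13 ppm, where 2.28% of all genes passed, or at 2 ppm, where 0.0435% passed. Myrip had the only unadjusted p under 0.05 at either concentration. At 15 minus 5 days it was at -0.51 ± 0.20 at 13 ppm (limma's adjusted p = 0.11) and -0.59 ± 0.20 at 2 ppm (limma's adjusted p = 0.17). Its 13 ppm mice measured 8.55, 8.66, 8.45, 8.58 and 8.82 after 15 days, against 8.72, 8.997, 8.88, 9.002 and 10.02 after 5 days, and these ranges overlapped. The change between the times in the difference of 13 from 2 ppm was called for 0% of genes (215 at an unadjusted p under 0.05) and for none of the 7, where 0 had an unadjusted p under 0.05. For Acox2 it was 0.08 (95% interval -0.24 to 0.41) and for Il1f9 -0.16 (95% interval -0.55 to 0.23).

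Probe sets of a gene were fitted separately over all named probe sets without a filter. Of the other Entpd5 probe sets, 1417382_at (0.84, limma's adjusted p = 1.1e-05), 1451765_a_at (0.64, adjusted p = 0.0045) and 1433763_at (0.46, adjusted p = 0.0045) also rose between 13 and 0.3 ppm. Probe set 1417383_at was at 0.51 (limma's adjusted p = 0.064), and 1458677_at, under the filter, was at 0.25. The other Afp probe sets above the filter were at 0.70, 0.61 and 0.42, with limma's adjusted p between 0.062 and 0.49, and 1436880_at, under the filter, was at 0.13. That probe set differed by 0.15 between 90 and 0 ppm, while the 3 others differed by 0.80 to 1.37. For Doc2b, probe set 1420666_at was under the filter and was 0.87 higher at 90 than at 0 ppm, against 1.76 for the main probe set. The second Tgfbr3 probe set, 1425620_at, was 0.17 higher at 90 than at 0 ppm. After 5 days it was at -0.27 between 13 and 0.3 ppm, and after 15 days at 0.03 between 13 and 2 ppm, with neither called by limma. Its mean at 13 ppm was thus not the lowest after 15 days, unlike that of the main probe set.

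Mice of one group differ among themselves, and these deviations from the group mean were not used to choose the genes. Of 27 pairs of the 7 genes in both species, 3 passed by Pearson's r and Spearman's rho in within-group permutations, all in the mouse (n = 45). Doc2b with Myrip had r = 0.66 and rho = 0.62 (permutation p = 0.00011 and 0.00016, adjusted p = 0.0015 and 0.0031), and r was 0.59 without the 2 farthest mice. Doc2b passed the filter on 9 of the 45 arrays, all at 90 ppm. The values over 45 mice thus rest mostly on signals under the filter, and no relation is read from them. That pair was also taken in parts, after the data had been seen. In the 10 mice at 90 ppm r was 0.85 and rho 0.77 (permutation p = 0.0064 and 0.022, not adjusted), and r was 0.61 without the 2 farthest. Doc2b was kept by the filter only through these mice, and mouse 169, at 6.26, was itself under it. This part is a description and is not used as a test. In the 35 others, all under the filter for Doc2b, r was 0.67 and 0.49 without the 2 farthest, and nothing is read from these. For Acox2 and Entpd5 r was 0.64 and rho 0.56 (permutation p = 2e-05 and 0.00023, adjusted p = 0.00054 and 0.0031), and r was 0.55 without the 2 farthest. For Afp and Entpd5 r was 0.56 and rho 0.54 (permutation p = 0.00051 and 0.00095, adjusted p = 0.0046 and 0.0085), and r was 0.48 without the 2 farthest. Afp with Acox2 (r = 0.52, rho = 0.40) and Afp with Il1f9 (r = 0.43, rho = 0.40) passed by r alone, at adjusted permutation p = 0.021 and 0.030. Entpd5 and Myrip had r = 0.02.

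**Figure D3:**
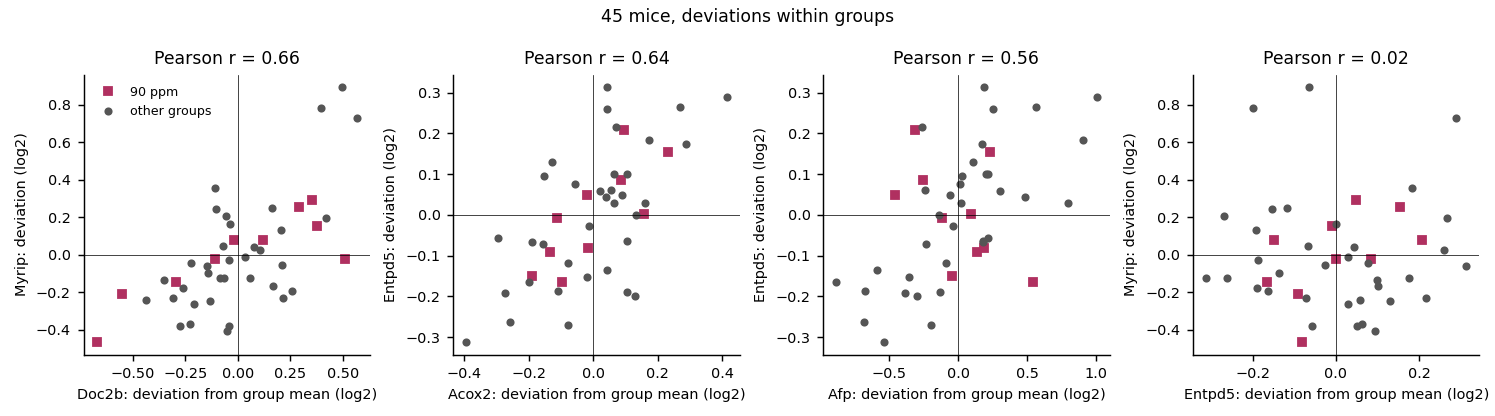
Deviations of single mice from their group mean, in log2 units, for 4 pairs of genes, with the 90 ppm mice as squares and the others as circles. Acox2 with Entpd5 (r = 0.64) and Afp with Entpd5 (r = 0.56) line up, and Entpd5 with Myrip (r = 0.02) does not. No relation is read from Doc2b with Myrip (r = 0.66). All circles of the Doc2b panel are from mice under the filter for Doc2b.

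Correlations over the 9 mouse group means are given only as a description, over points that share arrays. The genes were chosen as higher in mice at the highest concentration, and those groups are among the 9. High values thus follow in part from the choice, and are not taken as a sign that genes moved together in single mice. Doc2b was under the filter in all mice at lower concentrations, so nothing is read from its values. Pearson's r was between 0.97 and 1.00 among Afp, Acox2, Il1f9 and Entpd5, and 0.97 between Doc2b and Myrip. Between the graded genes and Doc2b or Myrip it was between 0.72 and 0.80. Tgfbr3 had 0.81 with Myrip and 0.76 with Doc2b, and between 0.25 and 0.31 with the graded genes.

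Each mouse was also given an NRF2 target score, the mean deviation of 34 genes that this factor is known to control (30 in the rat), none of them among the 7. Over 11 relations, mouse Acox2 followed the score with r = 0.71 and rho = 0.67 (permutation p = 1e-05 for both, the smallest possible; adjusted p = 0.00011), and r was 0.62 without the 2 farthest mice. Mouse Myrip (r = 0.50, rho = 0.40), Afp (r = 0.50, rho = 0.40), Entpd5 (r = 0.48, rho = 0.41) and Il1f9 (r = 0.46, rho = 0.43) passed by both measures, at adjusted permutation p between 0.0084 and 0.028. Without the 2 farthest mice r was 0.42 for Myrip, 0.34 for Afp, 0.36 for Entpd5 and 0.40 for Il1f9. Tgfbr3 (r = -0.25, adjusted permutation p = 0.15) did not pass. Doc2b had r = 0.29 (adjusted permutation p = 0.12), but its values rest mostly on signals under the filter, so nothing is read from it. In the rat, Entpd5 had r = 0.68 and rho = 0.70 (adjusted permutation p = 0.00011 and 0.00016) and 0.66 without the 2 farthest, and Myrip had r = 0.48 and rho = 0.40 (adjusted permutation p = 0.034 and 0.035) and 0.36 without them. Rat Doc2b passed by r alone (0.46, adjusted permutation p = 0.039), and rat Tgfbr3 had r = 0.09. Without the 3 rats whose titles name no tissue r was 0.69 for Entpd5, 0.32 for Myrip and 0.24 for Doc2b, and of these Entpd5 alone passed (adjusted permutation p = 0.00048). Without the 2 farthest animals 3 relations passed by r after adjustment, those of mouse Acox2, mouse Myrip and rat Entpd5. The 5 others that had passed did not pass without those animals, with r between 0.29 and 0.40. Control of the 7 genes by NRF2 was not tested.

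Markers of airway cells moved with some of these genes. Between 90 and 0 ppm after 5 days, 8 of 13 measured markers of ciliated cells and 6 of 11 of club cells were called higher and 0 lower by limma, and between 90 and 0.3 ppm after 15 days 6 and 4 were. Of all 13796 genes, 1240 were called higher and 1014 lower after 5 days, and 646 higher and 454 lower after 15 days. The mean log2 level of the ciliated list was between 9.51 and 9.88 in the 90 ppm mice, against 8.82 to 9.21 in the 0 ppm mice, and between 9.31 and 9.81 at 90 ppm, against 8.93 to 9.42 at 0.3 ppm, after 15 days. At 13 against 0.3 ppm 1 of the 13 was called, where 0.348% of all genes were. Within groups, in 14 relations added after the data had been seen, Acox2 followed the ciliated list with r = 0.63 and rho = 0.63 (adjusted permutation p = 0.00098 and 0.0013) and the club cell list with r = 0.61 and rho = 0.60 (adjusted permutation p = 0.00098 and 0.0013). Without the 2 farthest mice these were 0.55 and 0.56. Myrip followed the ciliated list with r = 0.57 and rho = 0.53 (adjusted permutation p = 0.0025 and 0.0046), and 0.62 without the 2 farthest. For Doc2b (r = 0.37) and Entpd5 (r = 0.32) the adjusted permutation p was 0.095, and r was between 0.03 and 0.12 for Il1f9, Afp and Tgfbr3. Nothing is read from the Doc2b value, which rests mostly on signals under the filter. The ciliated and NRF2 scores were themselves related, with r = 0.67 and rho = 0.60 (permutation p = 7e-05 for r). The part of airway cells in the levels of Acox2 and Myrip was not tested.

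Other cell types were read by their markers as well. The counts below stand against 1240 genes higher and 1014 lower of 13796 after 5 days, and 646 and 454 after 15 days. A single call in a list lies near those shares, and nothing is read from it. Of 14 hepatocyte markers on the mouse array, 8 were under the filter (Apob, Apoc3, Fga, Fgb, Fgg, Cyp3a11, Cps1 and Ahsg), and of the 6 measured 2 were called higher at 90 ppm at each time. The mean level of those 6 was between 7.30 and 7.71 in the 90 ppm mice, against 6.99 to 7.44 in the 0 ppm mice, and between 7.37 and 7.59 at 90 ppm, against 6.93 to 7.33 at 0.3 ppm, after 15 days. Of the basal and squamous markers 5 were under the filter (Krt14, Trp63, Krt13, Sprr1b and Dsc3) and 0 of 7 measured were called at 90 ppm at either time. Of the neuroendocrine markers 4 were under it (Chga, Chgb, Scg2 and Insm1) and 2 of 6 measured were called higher at each time. Of the goblet cell markers 1 of 8 was called higher after 5 days and 2 after 15 days, with a mean level between 7.06 and 8.11 at 90 ppm, against 6.69 to 7.80 at 0 ppm, and between 7.29 and 8.20 at 90 ppm, against 7.03 to 7.58 at 0.3 ppm. Alveolar markers went the other way: 4 of 11 of type 2 cells and 2 of 10 of type 1 cells were called lower after 5 days and 2 of each after 15 days, with 0 higher. The mean type 2 level was between 13.43 and 13.59 at 90 ppm, against 13.65 to 13.72 at 0 ppm. Of the alveolar macrophage markers 2 of 10 were called lower after 5 days and 3 after 15 days, of the endothelial markers 2 of 12 and 0, and of the fibroblast markers 1 of 12 and 0. Of the mesothelial markers 1 of 9 was called higher after 5 days and 0 after 15 days, and of the 9 neutrophil markers 0 were called at either time, with 4 and 3 at an unadjusted p under 0.05. The part of these cell types in the levels of the 7 genes was not tested.

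The genes most like each of the 7 over the 9 group means were found by Pearson's r, as a description. Doc2b was under the filter in all groups below 90 ppm, which limits its lists. For Acox2 they were Abcb6, Aox1 and Cbr3 (0.995 to 0.996), and for Il1f9 Gclm, Srxn1 and Cbr3 (0.986 to 0.990). For Afp they were Cldn4, Gm17586 and Mt1 (0.985 to 0.992), and for Entpd5 Tm6sf2, Idh1 and Cldn4 (0.990 to 0.991). For Doc2b they were Ramp3, C87436 and Fkbp1b (0.985 to 0.997), for Myrip Lyve1, Ttc39c and Ampd3 (0.989 to 0.994), and for Tgfbr3 Fbxo32, Hsd11b1 and Agtr1a (0.973 to 0.976). Over the deviations of the 45 mice the lists were different. Acox2 came with Efcab10, Ppil6 and Fam166c (0.87 to 0.88), Entpd5 with Gm16136, Esrrg and Abcc1 (0.78 to 0.81), and Afp with Trmt61b, Dnajc12 and Rnls (0.80 to 0.84). Myrip came with Pknox2, Gdpd1 and Klhl2 (0.75 to 0.78), Doc2b with Trarg1, Ppp1r21 and Fbxo31 (0.69 to 0.72), Il1f9 with Cklf, Zfp398 and Glipr1 (0.61 to 0.67), and Tgfbr3 with Tnrc6b, Zeb2 and Abca8a (0.63 to 0.64).

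The genes that work with the 7 were listed by pathway. Of 160 such partner genes measured in the mouse, 28 passed limma between 90 and 0 ppm after 5 days (17.5%, against 16.3% of all genes), 12 higher and 16 lower. After 15 days 13 passed between 90 and 0.3 ppm (8.12%, against 7.97%), 6 higher and 7 lower. Between 13 and 0.3 ppm 1 of the 160 passed. The count at 5 days was 8 when the RNA integrity number entered the fit, which drops the 5 mouse arrays without one and leaves 2 of the 5 mice at 0 ppm. The count at 15 days was 5 without the 9 mice of conflicting duration and 8 without mouse 179 of the 90 ppm group.

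Among 26 measured genes of peroxisomal oxidation and bile acid side chain breakdown, 2 rose and 2 fell after 5 days, with a median of -0.02, against 0.01 over all genes. Acoxl, an acyl-CoA oxidase relative of Acox2, went the other way: it averaged 9.59 ± 0.39 at 90 ppm, against 10.86 ± 0.10 at 0 ppm (SD, n = 5 each), and it fell by 1.26 ± 0.16 (SE; limma's adjusted p = 3.3e-07). After 15 days it fell by 1.00 ± 0.16 (limma's adjusted p = 4.5e-05), and its 90 and 0.3 ppm ranges did not overlap. Amacr, the racemase that prepares substrates for Acox2, rose by 0.47 ± 0.08 (limma's adjusted p = 1.9e-05) after 5 days and by 0.29 ± 0.08 (adjusted p = 0.010) after 15 days. The isomerase Eci2 rose by 0.28 ± 0.06 after 5 days, and the thiolase Acaa1b fell by 0.51 ± 0.14 after 15 days. The branched-chain oxidase Acox3 was at -0.15 at both times (limma's adjusted p = 0.51 and 0.62).

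Albumin, Alb, the neighbour and relative of Afp, was at 0.04 ± 0.10 after 5 days (limma's adjusted p = 0.85) and at 0.07 ± 0.10 after 15 days (adjusted p = 0.80). It averaged 6.83 ± 0.06 at 90 ppm, against 6.79 ± 0.22 at 0 ppm (SD, n = 5 each), with overlapping ranges. Of 15 measured genes of the albumin family and fetal liver, the forkhead factor Foxa2 alone passed after 5 days, at 0.50 ± 0.12 (limma's adjusted p = 0.0032), and 0 passed after 15 days, with 1 at an unadjusted p under 0.05.

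Among 35 genes of regulated exocytosis, where Doc2b and Myrip act, 4 rose and 2 fell after 5 days, and 3 rose and 2 fell after 15 days. The vesicle GTPase Rab3c averaged 7.10 ± 0.38 at 90 ppm, against 5.88 ± 0.10 at 0 ppm (SD, n = 5 each), and rose (limma's adjusted p = 9.5e-05). All its 0 ppm mice were under the filter, so the rise of 1.22 as measured is at least 0.43 against the filter. After 15 days it rose again (limma's adjusted p = 0.0064), by 0.90 as measured and at least 0.20 against the filter, which all 0.3 ppm mice were under. The partners of Myrip moved in opposite directions: Rab27a rose by 0.25 and 0.32 at the 2 times (limma's adjusted p = 0.022 and 0.0061), and Rab27b fell by 0.68 ± 0.15 after 5 days (adjusted p = 0.00081). Rab27b was at -0.41 ± 0.15 after 15 days (limma's adjusted p = 0.078). Rab3d rose by 0.48 ± 0.10 after 5 days, the syntaxin Stx3 by 0.24 ± 0.07 after 15 days, and Doc2a, the nearest relative of Doc2b, was at 0.07 and -0.21 (limma's adjusted p = 0.82 and 0.50).

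Other genes of the interleukin-1 family fell where they passed. Of 22 measured, 0 rose and 6 fell after 5 days (median -0.16) and 0 rose and 2 fell after 15 days (median -0.11). The alarmin Il33 averaged 10.38 ± 0.36 at 90 ppm, against 11.12 ± 0.13 at 0 ppm (SD, n = 5 each), and fell by 0.73 ± 0.15 (SE; limma's adjusted p = 0.00069) after 5 days and by 0.67 ± 0.15 (adjusted p = 0.0039) after 15 days. Il1a fell by 0.43 and the interleukin-18 receptor Il18r1 by 0.51 after 5 days, and the adaptor Myd88 fell by 0.23 after 15 days. Il1rl2, the receptor of interleukin-36, was at -0.12 and 0.09 and the relative Il1f6 at -0.01 and -0.06, with limma's adjusted p between 0.47 and 0.94. The antagonist Il1rn was at -0.21 and -0.26 (limma's adjusted p = 0.23 and 0.18).

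Of 27 genes of nucleotide hydrolysis and glycoprotein folding in the endoplasmic reticulum, 3 rose and 3 fell after 5 days, and 0 rose and 1 fell after 15 days. Entpd3, a relative of Entpd5 on the cell surface, was the partner that passed between 13 and 0.3 ppm, at 0.44 ± 0.09 (limma's adjusted p = 0.0060), and it rose by 0.30 ± 0.09 between 90 and 0 ppm (adjusted p = 0.015). The nucleotide kinase Cmpk1 fell by 0.25 ± 0.06 and the disulphide isomerase Pdia4 by 0.57 ± 0.18 after 5 days, and the glucosidase Mogs fell by 0.41 ± 0.08 after 15 days. Entpd6 was at 0.17 and -0.01 (limma's adjusted p = 0.16 and 0.98).

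Of 35 genes of the transforming growth factor beta family, 2 rose and 3 fell after 5 days and 2 rose and 0 fell after 15 days. Follistatin, Fst, which binds activins, averaged 8.63 ± 0.42 at 90 ppm, against 7.51 ± 0.30 at 0 ppm (SD, n = 5 each), and rose by 1.12 ± 0.20 (SE; limma's adjusted p = 9.6e-05) after 5 days and by 0.91 ± 0.20 (adjusted p = 0.0027) after 15 days. Tgfb2, the ligand that most depends on betaglycan, fell by 0.75 ± 0.14 and Bmp4 by 0.52 ± 0.12 after 5 days, and the inhibin subunit Inha rose by 0.35 ± 0.11 after 15 days. The receptors Tgfbr1, Tgfbr2 and Eng were between -0.18 and 0.01 at both times, with limma's adjusted p between 0.16 and 0.97.

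**Figure D4:**
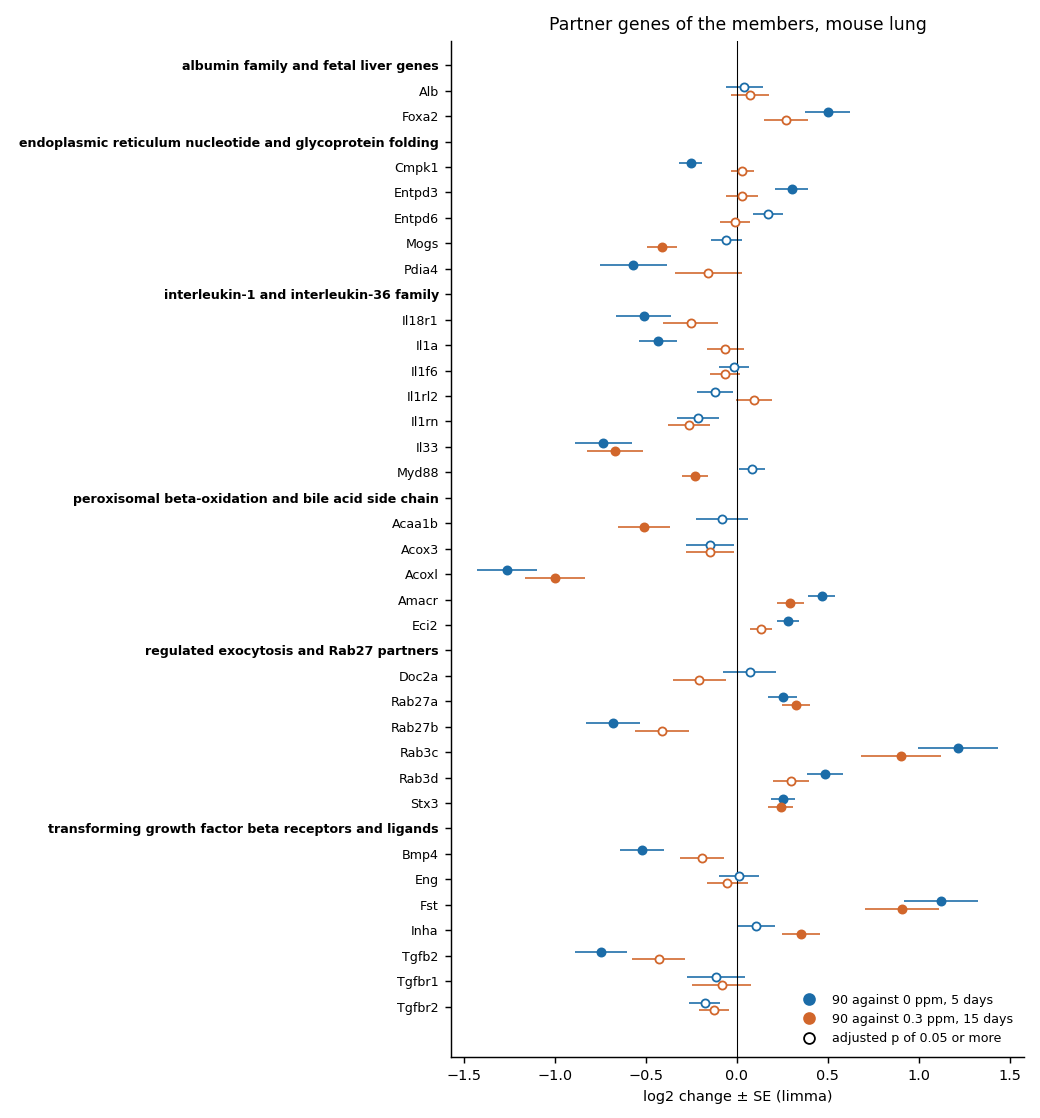
Log2 difference of named partner genes between 90 and 0 ppm after 5 days (blue) and between 90 and 0.3 ppm after 15 days (orange), with the standard error, and filled symbols for limma's adjusted p under 0.05. Fst lies at 1.12 after 5 days and Acoxl at -1.26, and Rab3c, at 1.22, was under the filter in all 0 ppm mice.

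In the rat, Entpd5 and Tgfbr3 rose and 0 of the 4 measured genes fell between 200 and 5 ppm after 5 days, where 36.3% of all genes passed and 4.68% passed as higher. Entpd5 measured 8.63, 8.41, 8.47, 8.23 and 8.35 at 200 ppm, against 7.99, 8.04, 7.94, 8.12 and 7.85 at 5 ppm. No rat at 200 ppm overlapped with the 5 ppm rats, and the difference was 0.43 ± 0.10 (SE; limma's adjusted p = 0.0039). Tgfbr3 measured 7.998, 7.88, 7.97, 8.03 and 8.05 at 200 ppm, against 7.40, 7.54, 7.56, 7.64 and 7.43 at 5 ppm. These ranges did not overlap either, and the difference was 0.47 ± 0.09 (limma's adjusted p = 0.00066).

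The same genes rose after 15 days, where 0.817% of all genes passed and 0.5% passed as higher. Entpd5 measured 8.69, 8.31, 8.44, 8.44 and 8.50 at 200 ppm, against 7.87, 8.04, 8.16, 8.25 and 7.94 at 5 ppm, a difference of 0.43 ± 0.10 (SE; limma's adjusted p = 0.041). Tgfbr3 measured 7.95, 7.67, 8.16, 7.97 and 7.66 at 200 ppm, against 7.38, 7.62, 7.43, 7.31 and 7.62 at 5 ppm, a difference of 0.41 ± 0.09 (limma's adjusted p = 0.021). In both genes the 200 ppm rats lay above all 5 ppm rats. Neither call of this time held when the RNA integrity number entered the fit, or when only the arrays compared did. Entpd5 was not called without rat 225, 227 or 229 of the 5 ppm group or rat 277, 280 or 282 of the 200 ppm group (limma's adjusted p between 0.066 and 0.17). Tgfbr3 was not called without rat 225, 227 or 228 of the 5 ppm group or rat 277 or 280 of the 200 ppm group (limma's adjusted p between 0.063 and 0.095).

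The change in this difference between 15 and 5 days was called for 11.4% of rat genes and for none of the 4, with 0 at an unadjusted p under 0.05. It was -0.003 (95% interval -0.30 to 0.30) for Entpd5 and -0.06 (95% interval -0.32 to 0.20) for Tgfbr3. Other probe sets of Entpd5, 1382434_at and 1382544_at among them, were at 0.53 and 0.59 after 5 days (limma's adjusted p = 0.013 and 0.0011) and at 0.47 and 0.67 after 15 days (adjusted p = 0.087 and 0.0017). Probe set 1382544_at exceeded the filter on only 8 of 40 rat arrays, so its signals lie mostly under it. The other Tgfbr3 probe set, 1369219_at, was at 0.14 after 5 days and 0.22 after 15 days (limma's adjusted p = 0.23 and 0.15). Other Myrip probe sets, 1373328_at and 1384095_at, were at 0.27 and 0.33 after 5 days (limma's adjusted p = 0.11 and 0.053). Markers of mesothelial cells also moved between these 5 day groups: of 7 measured, 1 rose and 6 fell, with a mean level between 9.02 and 9.30 at 200 ppm, against 9.79 to 10.35 at 5 ppm, and after 15 days 0 of 7 passed. Of all rat genes 4.68% rose and 31.6% fell between these groups after 5 days. Of the club cell markers 3 of 8 rose and 0 fell after 5 days, of the fibroblast markers 3 of 11 rose and 0 fell, and of the alveolar macrophage markers 0 of 7 rose and 4 fell, and after 15 days 0 of each list passed. The mean club cell level was between 10.80 and 11.85 at 200 ppm, against 10.36 to 10.93 at 5 ppm, after 5 days. The part of these cell types in the rat values was not tested.

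Doc2b was between 7.66 and 7.95 and Myrip between 9.08 and 9.41 in the rat group means. Between 200 and 5 ppm Doc2b was at 0.04 (95% interval -0.10 to 0.18) after 5 days and at 0.05 (95% interval -0.09 to 0.19) after 15 days. Myrip was at 0.13 (95% interval -0.26 to 0.51) and at 0.12 (95% interval -0.27 to 0.51). Rats 269 and 282 had the highest Myrip signals at 200 ppm, 9.90 and 10.02, and without the 3 rats whose titles name no tissue the differences were 0.0038 and -0.04, a setting added after the data had been seen. Rat 239, the other of the 3, was the highest at 30 ppm after 5 days, at 10.19. Rat Afp and Acox2 had group means between 4.82 and 5.03 and between 4.63 and 4.82, under the filter, and were not tested.

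At 90 against 5 ppm, the rat concentration shared with the mouse series, limma called none of the 4 genes after 5 days (23.6% of all genes, 0 of the 4 at an unadjusted p under 0.05) or after 15 days (0.309% of all genes, 2 of the 4 at an unadjusted p under 0.05). After 15 days Entpd5 was at 0.39 ± 0.10 (limma's adjusted p = 0.097) and Tgfbr3 at 0.24 ± 0.09 (adjusted p = 0.27). At 30 against 5 ppm none passed after 5 days, where 0% of all genes and 0 of the 4 by unadjusted p did, or after 15 days (1.66% of all genes, 2 of the 4 by unadjusted p). Doc2b was at 0.22 ± 0.07 (limma's adjusted p = 0.086) and Entpd5 at 0.27 ± 0.10 (adjusted p = 0.12) in the 15 day comparison. Without the 3 rats whose titles name no tissue, 1 of the 4 was called in each of these 15 day comparisons, Entpd5 at 90 ppm (0.39, limma's adjusted p = 0.046) and Doc2b at 30 ppm (0.22, adjusted p = 0.031), and 1246 of all genes, in place of 0, passed at 30 ppm after 5 days. The species were not compared in a test, since their arrays and reference concentrations differ.

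**Figure D5:**
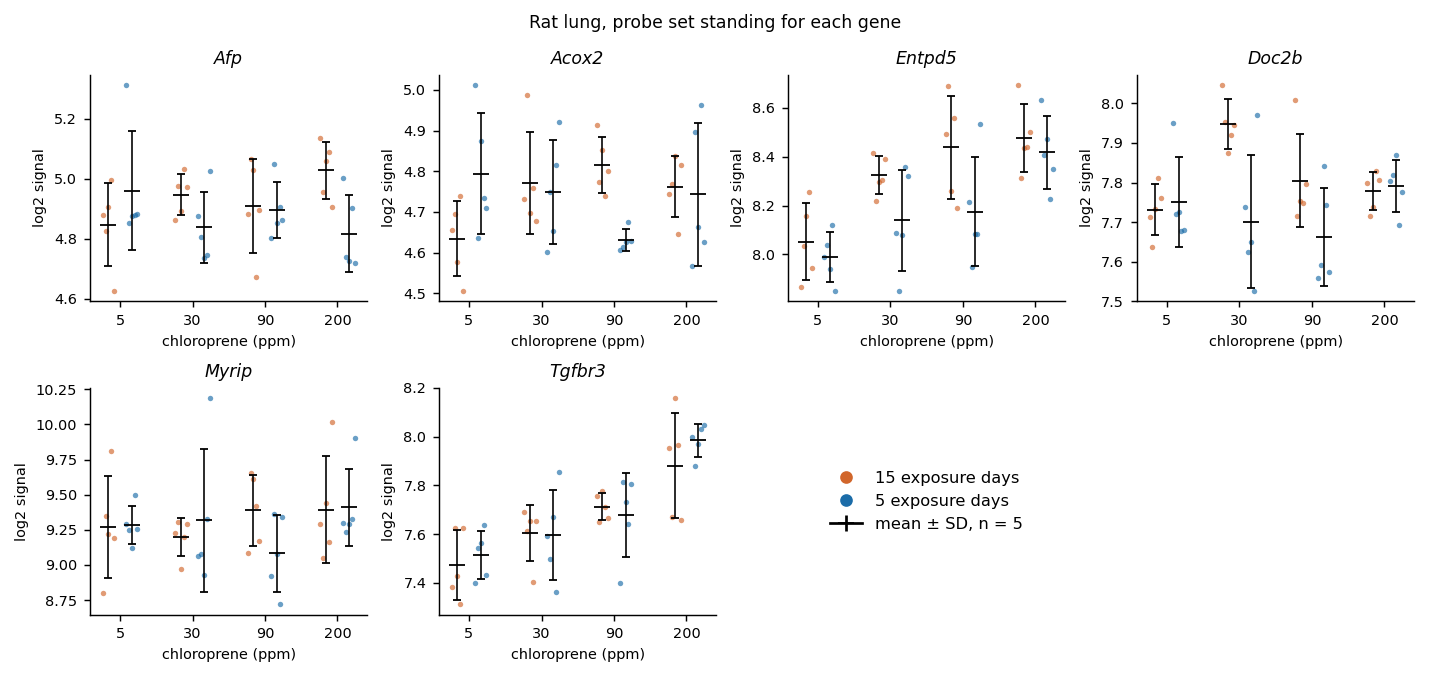
Log2 signal of each gene in every rat lung (points) with the group mean and SD (bars), by chloroprene concentration in ppm and exposure days. Entpd5 and Tgfbr3 are higher at 200 than at 5 ppm at both times, and Doc2b and Myrip overlap between these groups.

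Of 130 partner genes measured in the rat, 8 rose and 35 fell between 200 and 5 ppm after 5 days (33.1%, against 36.3% of all genes), and 1 rose and 0 fell after 15 days. Bmpr2, a receptor of bone morphogenetic proteins, rose by 1.99 ± 0.34 (limma's adjusted p = 0.00028) after 5 days. Rab27b rose by 0.72 ± 0.19 (limma's adjusted p = 0.0054) in these rats, and the syntaxin Stx11 fell by 0.80 ± 0.15 and the ectonucleotidase Entpd2 by 0.65 ± 0.15. Of 23 folding genes 0 rose and 11 fell, among them Pdia4 (-0.49 ± 0.10). The gene that passed after 15 days was Il1rl1, the interleukin-33 receptor, at 0.27 ± 0.07 (limma's adjusted p = 0.045).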

How the data were processed

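Signals came from Affymetrix Mouse430_2 and Rat230_2 arrays, 1 per animal, from right lung lobes kept in RNAlater and extracted with Trizol and RNeasy, per the labels' protocols. The values are the authors' deposited log2 signals, between 3.47 and 15.3 in the mouse and 3.07 and 15.1 in the rat, with array medians of 7.27 to 7.37 and 7.25 to 7.32. Their background correction and normalization are not given in the sources used here, and they were used as deposited. Probe sets with a single symbol in the platform annotation were kept (932 mouse and 436 rat probe sets name several genes). A probe set had to exceed the 40th percentile of its table (6.67 mouse, 6.65 rat) on at least 5 arrays, and the one of highest mean stood for its gene, which left 13796 mouse and 11010 rat genes.

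Each species was fitted with limma 3.58.1 in R 4.3.3, with 1 mean per group, empirical Bayes and Benjamini-Hochberg adjustment over all genes tested; called means an adjusted p under 0.05, two-sided. Simulated data held independent normal noise and 200 changed genes. There the fit for 13 against 0.3 ppm over 13796 genes recovered 74% of changes of 0.5 log2 units and 96% of changes of 1. The rat fit for 200 against 5 ppm at 5 days over 11010 genes recovered 69% and 95%. The data gave 48 and 3992 called genes in these comparisons, so the rates do not carry over to them. Nor do they describe genes of large spread such as Afp and Myrip, with standard errors of 0.27 and 0.20 in the mouse comparison. Relations between animals used deviations from group means and 100000 two-sided permutations within groups (Python 3.11.15, numpy 2.4.6, scipy 1.17.1).

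Alternatives were another or no filter, quantile normalization, the mean of a gene's probe sets, single probe sets, RNA integrity as a covariate, fits of the compared arrays alone, and the removal of single animals, of 6 mice whose numbers carry a letter and of 9 mice of conflicting duration. The removal of 3 rats whose titles name no tissue was added later. The genes, pathway lists and marker lists were chosen with earlier results of these data known. Named besides the 7 genes were, in each pathway list and comparison, up to 3 genes past the threshold with the smallest p, a fixed set of close relatives (Alb, Doc2a, Rab27a, Rab27b, Acox3, Il1f6, Il1rn, Il1rl2, Entpd6, Tgfbr1, Tgfbr2 and Eng among them), and the 3 genes most like each gene. In the mouse, Entpd4 had no probe set of its own symbol alone and was not used. Promoter windows came from RefSeq (GRCm38.p6), which gave windows for 5 of the 7 genes here; Doc2b and Tgfbr3 are named only. A difference between group means had a standard error of 0.0991 (mouse) or 0.11 (rat) at the median over genes, which 5 animals a group set.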

Additional observations from a re-analysis of the deposited data

Results flagged for a closer look

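In 11 of 111 groups of 5 animals, 1 animal stood far from the other 4 by Dixon's 95% criterion, and chance gives about 1 in 20. In mice, Afp was lowest in mouse 153 (5 days, 13 ppm) at 7.40, with the next at 8.10. Doc2b was highest in mouse 103 (5 days, 0 ppm) at 5.42, with the next at 5.13. In mouse 128 (15 days, 0.3 ppm) Doc2b was highest at 6.06, with the next at 5.41, and Myrip was highest at 9.53, with the next at 8.70. The labels of mouse 128 conflict on its duration. Myrip was highest in mouse 154 (5 days, 13 ppm) at 10.02, with the next at 9.002. In rats, rat 217 (5 days, 5 ppm) was highest for Afp at 5.31 and for Doc2b at 7.95. Doc2b was highest in rat 257 (15 days, 90 ppm) at 8.01, Acox2 in rat 242 (15 days, 30 ppm) at 4.99 and Myrip in rat 269 (5 days, 200 ppm) at 9.90. Tgfbr3 was lowest in rat 244 (15 days, 30 ppm) at 7.40. The rat Afp and Acox2 signals are under the filter.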

How the results depend on the processing

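Of 1669 values of the 7 genes under an alternative, 1635 kept their side of the threshold, 27 lost their call, 7 gained one and 0 of the called values changed sign. In 94 of the 1635 the sign differed from the reported one, with neither value called. Between 13 and 0.3 ppm 3 of the 7 were called, 2 to 4 under other settings and 3 without any single mouse. Between 2 and 0.3 ppm 1 was called, 2 with quantile normalization, 2 without the mice of conflicting duration, 0 with only the arrays compared, and 1 to 2 without single mice. In 15 day rats at 200 against 5 ppm 2 were called, 0 when RNA integrity was a covariate, 0 with only the arrays compared, and 0 to 2 without single rats. At 5 days both rat calls held in each alternative. Without the 3 rats whose titles name no tissue, chosen after the data had been seen, 1 of the 4 was called at 90 and 1 at 30 against 5 ppm after 15 days, in place of 0. Of the partner genes, 28 were called between 90 and 0 ppm, 8 with the integrity number (19 to 26 without single mice), and 13 between 90 and 0.3 ppm, 6 with only the arrays compared, 5 without the mice of conflicting duration, 7 without lettered mice (8 to 15 without single mice). Of the relations with the NRF2 score 8 passed by r, and 3 without the 2 farthest animals.

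Counts over all genes moved more. Other settings gave 5 to 20 for 2 against 0.3 ppm (11 as reported), 0 to 7 for 13 against 2 ppm at 5 days (3) and 3 to 15 at 15 days (15). They gave 0 to 1335 for 15 against 5 days at 13 ppm (314) and 0 to 863 at 2 ppm (6). For 90 against 0 ppm the integrity number gave 761 (2254), and the 15 day count was 385 at the lowest (1100). In rats the integrity number gave 2468 for 200 against 5 ppm at 5 days (3992), and leaving out single rats gave 1389 to 5581 there, 15 to 275 at 15 days (90) and 36 to 5639 for 90 against 5 ppm at 5 days (2598). Other settings gave 17 to 4780 there, 0 to 1246 for 30 against 5 ppm at 5 days (0), 0 to 228 for 90 against 5 ppm (34) and 0 to 1260 for 30 against 5 ppm (183) in 15 day rats, and 0 to 1562 for the change between the times (1259). The causes were not tested. No paired analysis was possible because the groups share no animal numbers. Il1f9, Doc2b and Rab3c lie near or under the filter at low concentrations, which limits what their probe sets show.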
